A study of Mus musculus with 24 samples.

Results

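The measurement described here is how far newly made RNA changed beyond total RNA 4 h after Th1 cells were restimulated. For each gene it is the change of new RNA (4 h minus 0 h) minus the change of total RNA (4 h minus 0 h), in log2(FPKM + 1), taken within replicate 1 and within replicate 2. FPKM is the number of fragments per kilobase of gene, scaled to the fragments of the library. Genes were included when they reached 1 FPKM in all 8 libraries of the comparison, which held for 8257 of the 9420 genes in the table. The difference is called "the new RNA excess" below. A positive value means that new RNA moved up relative to total RNA, and a negative value that it moved down.

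The cells were Th1 effector cells, interferon-producing CD4+ T cells, from DO11.10 mice, which carry a transgenic T cell receptor. The 4 groups were new RNA at 4 h, new RNA at 0 h, total RNA at 4 h and total RNA at 0 h, with 2 libraries each out of 24 in the series. The 4 h groups had been restimulated with anti-CD3 at 1 µg/ml and anti-CD28 at 2.5 µg/ml, both soluble, over plate-bound anti-hamster immunoglobulin, and the 0 h groups are the start of that time course. New RNA is RNA that took up 4-thiouridine (4sU, 200 µM) during 1 h of labelling and was separated from the rest. All 8 libraries were depleted of ribosomal RNA. No label ties a replicate to its own animal or culture, and the p-values therefore reflect a spread among libraries that may be technical.

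As background, the total pool of an mRNA is what earlier synthesis left behind and decay has not yet removed. Labelled RNA reports what was made in the labelling time. When synthesis of a long-lived mRNA rises, the labelled fraction moves first and the pool follows slowly. When synthesis of a short-lived mRNA changes, both move almost together. Restimulated T cells are known to raise the machinery of growth, above all ribosomes, and to secrete cytokines whose mRNAs decay fast. Ribosomal protein mRNAs and mRNAs of many elongation factors share a run of pyrimidines at their cap, the TOP (terminal oligopyrimidine) element, through which growth signals regulate their translation.

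Some of the called genes are shown first by the sequence around their RefSeq start (GRCm38.p6). Each sequence runs from 40 bases before the start to 25 bases after its first base inclusive. The longest pyrimidine run (letters C and T on the gene's strand) that touches the window of 15 bases on either side of the start is in capitals. The first 6 are ribosomal proteins or elongation factors with a higher new RNA excess, and the last 3 are genes with a lower one. Rplp1 and Rpl36, which had the largest called values, are not among the genes shown. Selenop had 3 starts in the RefSeq table and is shown at a single one.
Rplp2: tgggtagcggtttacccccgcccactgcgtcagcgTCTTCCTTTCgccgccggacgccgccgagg
Rpsa: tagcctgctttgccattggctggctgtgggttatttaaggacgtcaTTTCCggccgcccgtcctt
Rps15: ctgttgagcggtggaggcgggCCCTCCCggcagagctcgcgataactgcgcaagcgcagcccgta
Eef1b2: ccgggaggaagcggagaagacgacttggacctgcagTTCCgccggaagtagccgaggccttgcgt
Rpl14: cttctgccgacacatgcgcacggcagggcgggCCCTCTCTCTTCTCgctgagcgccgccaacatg
Rplp0: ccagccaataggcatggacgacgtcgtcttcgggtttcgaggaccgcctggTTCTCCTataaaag
Itgb7: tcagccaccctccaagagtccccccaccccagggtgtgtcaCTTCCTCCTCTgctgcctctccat
Anxa1: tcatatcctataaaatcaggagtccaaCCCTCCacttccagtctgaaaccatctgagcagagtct
Selenop: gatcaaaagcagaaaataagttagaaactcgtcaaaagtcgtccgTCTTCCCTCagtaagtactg

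A run of at least 8 pyrimidines touched that window at any start in 19 of 36 ribosomal protein genes with a promoter (52.8%). The same held for 6 of 9 genes of other TOP mRNAs with a promoter (66.7%). Such a run was found at any start of 20.2% of the 6642 included genes with a promoter. Of the 32851 single promoters in the RefSeq table, which count starts and not genes, 17.6% had it. The runs of Rplp2 (10 bases) and Rpl14 (14 bases) span the start, whereas those of Rpsa, Rps15, Eef1b2 and Rplp0 are shorter than 8 bases. Itgb7 and Selenop, which moved the other way, also have runs of 11 and 9 bases. The start used by these cells was not measured, and a run of these letters is a description of the window.

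Among the gene lists, ribosomal proteins and other TOP mRNAs had the most calls. New RNA rose for 49 of 50 ribosomal proteins (21.9% of all genes did) and total RNA for 6 (16.9%). Ribosome footprints, which did not enter the difference, were also higher at 4 h for most of them. Over all genes included, 133 of 8257 (1.61%) had a higher new RNA excess and 15 (0.182%) a lower one (limma with the replicate number as a block, Benjamini-Hochberg adjusted p below 0.05 over all 9420 genes). All 148 (1.79%) had the same sign within both replicates, which a call on these same libraries favours. By a rule of size with no test, 125 (1.51%) were at least 2-fold higher and 20 (0.242%) at least 2-fold lower within each replicate, of which 110 and 12 were among the calls. Over all genes included, the excess had a median of -0.08 in each replicate, with percentiles 5 and 95 of the mean at -0.61 and 0.70. The libraries are bulk samples, so fewer cells of a type and less RNA per cell cannot be told apart, and FPKM are relative to each library, so a change is relative to the other RNA of its kind.

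The calls depend on the model. Without the replicate block, limma called 0 genes in the table (adjusted p of at least 0.5847, with 476 genes at an unadjusted p below 0.05, against 1274 in the fit with the block). Leaving out new RNA 0 h replicate 1, new RNA 0 h replicate 2 or total RNA 4 h replicate 1 also left 0 calls, and leaving out total RNA 4 h replicate 2 left 1. The counts of higher and lower calls in the table, 139 (1.48%) and 19 (0.202%) with all libraries, were 53 and 18 without new RNA 4 h replicate 1, 145 and 36 without new RNA 4 h replicate 2, 303 and 144 without total RNA 0 h replicate 1, and 87 and 13 without total RNA 0 h replicate 2. The directions of all 158 calls held in each of these fits. The calls were chosen on these same libraries, most of which each fit kept, so the held directions are a description and no check. The values per library and per replicate are given beside the calls.

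**Figure D1:**
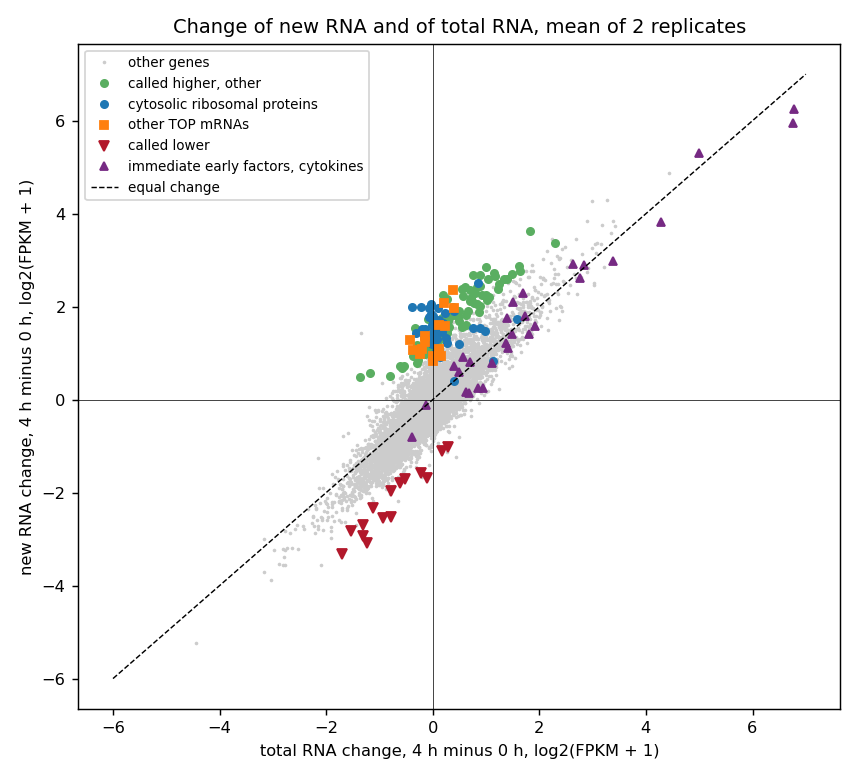
Change of total RNA (horizontal axis) against change of new RNA (vertical axis), 4 h minus 0 h in log2(FPKM + 1), for the 8257 genes, each a point at the mean of 2 replicates. The dashed line marks equal change. Ribosomal proteins and other TOP mRNAs form a column above a total RNA change of 0, while immediate early factors lie along the line and most cytokines below it.

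The 50 ribosomal proteins in the table (of 81 listed) had a median new RNA excess of 1.45, with 1.51 in replicate 1 and 1.39 in replicate 2, against a median of -0.08 over all genes. Of the 50, 36 were called higher (1.61% of all genes were) and 0 lower (0.182%). In both replicates 46 were above 0 (26.8% of all genes were), and 38 were at least 2-fold higher (1.51%). Their new RNA change had a median of 1.52 and was called higher for 49 (21.9% of all genes were, and 31.8% were called lower), and their total RNA change had a median of 0.05 and was called higher for 6 (16.9% of all genes). Many ribosomal protein genes have near-identical processed copies, so the values of single members are uncertain where the counting could split reads between them.

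Rplp2, a protein of the ribosomal stalk (ENSMUSG00000025508, GRCm38 chromosome 7, 141447370 to 141451585, plus strand), had the smallest adjusted p of the members described here. It stood at 93.2 and 47.1 FPKM in new RNA at 4 h against 19.4 and 11.9 FPKM at 0 h, replicates 1 and 2. In total RNA it stood at 225.8 and 118.5 FPKM at 4 h against 213.5 and 131.2 FPKM at 0 h. Both new RNA libraries at 4 h were above both at 0 h, whereas the total RNA libraries overlapped. The new RNA excess was 2.08 ± 0.24 SE (limma, adjusted p = 0.0115), 2.13 in replicate 1 and 2.04 in replicate 2.

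The stalk partner Rplp1 (chromosome 9, 61913284 to 61914542) had the largest called value. Its new RNA stood at 446.6 and 200.4 FPKM at 4 h against 71.5 and 77.1 FPKM at 0 h. Its total RNA stood at 941.7 and 799.1 FPKM at 4 h against 1066 and 1221 FPKM at 0 h. New RNA at 4 h lay above new RNA at 0 h in every pair of libraries, while total RNA at 4 h lay below total RNA at 0 h, and the new RNA excess was 2.39 ± 0.41 SE (adjusted p = 0.0197). Rpl36 of the large subunit followed with 2.21 ± 0.37 SE (adjusted p = 0.0186).

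Of the small subunit, Rpsa, which also serves as a laminin receptor, had a new RNA excess of 2.03 ± 0.35 SE (adjusted p = 0.0202), at 1.97 in replicate 1 and 2.09 in replicate 2. Its new RNA stood at 484.4 and 257.7 FPKM at 4 h against 104.1 and 77.3 FPKM at 0 h, and its total RNA at 1009 and 743.9 FPKM at 4 h against 856.3 and 960.7 FPKM at 0 h. Rps15 had 1.88 ± 0.36 SE (adjusted p = 0.0272). The list was not uniform, since 14 of its members were not called. Rpl30 stood at -0.31, Rps27l at 0.00 and Rpl26 at 0.15, the lowest 3 values, and Rps23 differed between replicates with -0.82 in replicate 1 and 2.21 in replicate 2 (these 4 were chosen after their values were seen).

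Of the 15 other TOP mRNAs, 10 were called higher (1.61% of all genes were) and 0 lower (0.182%). Their median was 1.38 (1.44 in replicate 1 and 1.37 in replicate 2). All 15 were above 0 in both replicates (26.8% of all genes were). Eef1b2, a subunit of the factor that recharges elongation factor 1A (chromosome 1, 63176825 to 63180486), stood at 172.3 and 125.4 FPKM in new RNA at 4 h against 36.7 and 31.6 FPKM at 0 h. In total RNA it stood at 358.1 and 289.9 FPKM at 4 h against 279.2 and 280.7 FPKM at 0 h. Its new RNA excess was 1.88 ± 0.26 SE (adjusted p = 0.0168).

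Npm1, the nucleolar chaperone nucleophosmin and a TOP mRNA that also belongs to ribosome biogenesis (chromosome 11, 33152287 to 33163206), stood at 155.8 and 172.6 FPKM in new RNA at 4 h against 27.9 and 35.4 FPKM at 0 h. Its total RNA stood at 309.4 and 288.5 FPKM at 4 h against 188.4 and 276.1 FPKM at 0 h. Total RNA at 4 h was thus above 0 h in both replicates, by less than new RNA was, and the new RNA excess was 1.96 ± 0.27 SE (adjusted p = 0.0168).

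**Figure D2:**
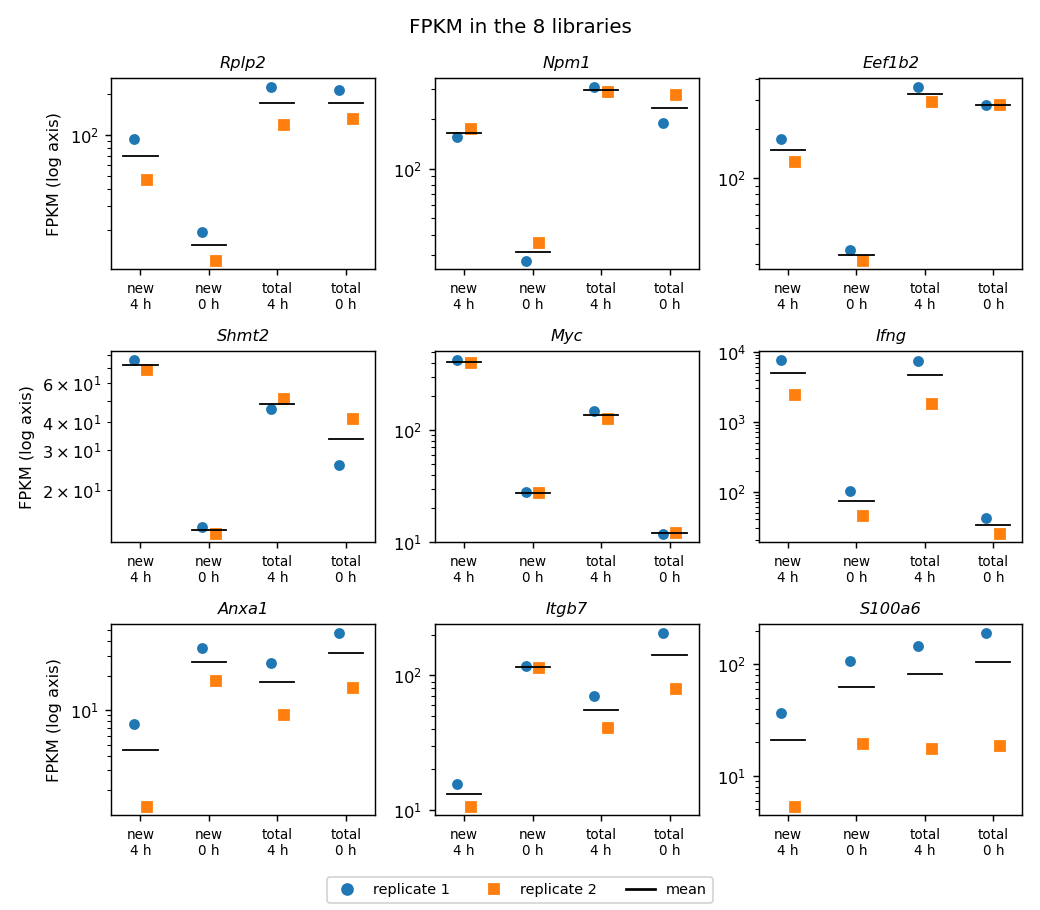
FPKM of 9 named genes in the 8 libraries, on log axes that differ between panels. Circles are replicate 1, squares replicate 2 and bars the mean of both. Rplp2, Npm1, Eef1b2 and Shmt2 separate by time in new RNA and much less in total RNA, and Myc and Ifng separate in both. Within each replicate Anxa1 and Itgb7 are lower at 4 h in both kinds of RNA, more so in new RNA, and S100a6 mainly in new RNA.

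The counts moved with the scaling. After a correction of each library for transcript GC content, chosen after the data were seen, limma called 2 of the 50 ribosomal proteins and 1 of the 15 other TOP mRNAs, and after median-of-ratios scaling 8 and 4. The medians were 1.53 and 1.52 with the GC correction and 1.51 and 1.44 with median-of-ratios scaling.

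Ribosome footprints, fragments of mRNA protected by translating ribosomes and measured in libraries that the difference did not use, were higher at 4 h for most of the same mRNAs. The median change of footprints from 0 to 4 h was 1.48 over the 50 ribosomal proteins (1.58 in replicate 1 and 1.19 in replicate 2) and 1.47 over the 15 other TOP mRNAs, against -0.08 over all genes. Footprints were above 0 in both replicates for 45 of 50 and 14 of 15, where 35.7% of all genes were. Eef1b2 stood at 1536 and 1166 FPKM at 4 h against 216.1 and 281.0 FPKM at 0 h in footprints. Rplp2 stood at 1582 and 1191 FPKM at 4 h against 550.5 and 478.1 FPKM at 0 h. For both genes the footprint libraries of the 2 times did not overlap. They did for Rpl36, at 46.92 and 21.25 FPKM at 4 h against 51.78 and 13.16 FPKM at 0 h.

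The times between showed when each kind of RNA moved. The ribosomal protein median in new RNA of replicate 1 was 0.62, 0.96, 1.30 and 1.69 at 1, 2, 3 and 4 h. In total RNA of replicate 1 it was -0.09 at 2 h and 0.21 at 4 h, and in replicate 2 it was -0.13 at 1 h and -0.08 at 4 h. Footprints of replicate 1 stood at 0.95 after 0.5 h and at 1.22, 1.52 and 1.58 after 1, 2 and 4 h. New RNA of replicate 2 stood at 0.53 at 1 h and 1.34 at 4 h, and footprints at 0.70 and 1.19. Footprints were thus higher in the 1 library at 0.5 h, the first footprint time measured, and new RNA with 1 h of labelling in both libraries at 1 h. New RNA labelled for 0.5 h had 1 library at 0 h and 1 at 0.5 h. Its median change between them was 0.13 over the ribosomal proteins and -0.04 over all genes. The intermediate times of new and total RNA share their 0 h libraries with the difference, and the times with 1 library have no replicate check.

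**Figure D3:**
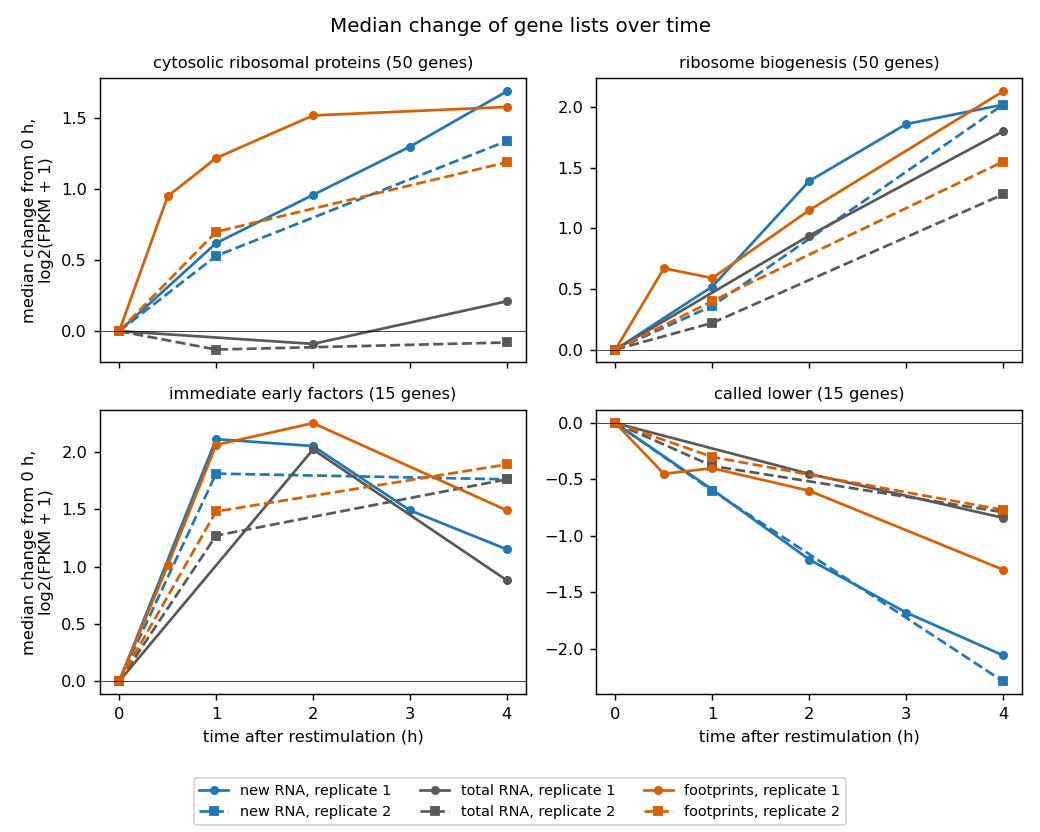
Median change from 0 h in log2(FPKM + 1) over the genes of 4 sets, against time in hours. Blue is new RNA, grey total RNA and orange footprints, with solid lines for replicate 1 and dashed lines for replicate 2. In the ribosomal protein panel, total RNA stays between -0.13 and 0.21 while new RNA reaches 1.69 and 1.34 at 4 h.

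For the genes that build ribosomes the total pool had moved as well. Of the 50 ribosome biogenesis genes, new RNA was called higher for 50 (21.9% of all genes were) and total RNA for 48 (16.9%). The median changes were 2.02 and 1.59, and the median new RNA excess was 0.40. Of the 50 genes, 5 were called higher in the excess (1.61% of all genes were) and 0 lower. Fbl, the nucleolar methyltransferase fibrillarin, had 1.61 ± 0.28 SE (adjusted p = 0.0202) with 68.5 and 41.5 FPKM in new RNA at 4 h against 8.58 and 9.57 FPKM at 0 h, and 67.2 and 47.0 FPKM in total RNA at 4 h against 35.2 and 27.8 FPKM at 0 h. Initiation factors had 2 of 27 called higher, against the same 1.61% of all genes, and a median of 0.26. Eif5a, which helps ribosomes through difficult peptide bonds, led them with 1.80 ± 0.30 SE (adjusted p = 0.0186), followed by Eif3b with 1.24 ± 0.27 SE (adjusted p = 0.0383). Of the 20 aminoacyl-tRNA synthetases, which charge tRNAs, 0 were called in the excess. Their median was 0.49, 17 were above 0 in both replicates (26.8% of all genes were), and Kars had the largest value, 1.02 ± 0.24 SE (adjusted p = 0.0586).

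Calls were also made among chaperones and among enzymes that supply amino acids and one-carbon units, where 1.61% of all genes were called higher. Of 27 folding chaperones 2 were called higher, with a median of 0.67 (0.46 in replicate 1 and 0.97 in replicate 2). Hsp90ab1, the constitutive cytosolic HSP90, stood at 443.0 and 445.3 FPKM in new RNA at 4 h against 81.8 and 119.0 FPKM at 0 h, with total RNA at 426.1 and 516.5 FPKM at 4 h against 321.2 and 472.7 FPKM at 0 h (excess 1.89 ± 0.29 SE, adjusted p = 0.0180). The other called chaperone was the mitochondrial Hspe1, with 1.65 ± 0.34 SE (adjusted p = 0.0307).

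Of 20 genes of amino acid and one-carbon metabolism 5 were called higher, with a median of 0.39. Shmt2, the mitochondrial enzyme that turns serine into glycine and one-carbon units, stood at 76.2 and 68.9 FPKM in new RNA at 4 h against 13.6 and 12.7 FPKM at 0 h. In total RNA it stood at 45.9 and 50.8 FPKM at 4 h against 25.8 and 41.3 FPKM at 0 h. The new RNA libraries separated by time far more than the total RNA libraries, and the excess was 1.83 ± 0.28 SE (adjusted p = 0.0180). Asns, which makes asparagine, had 1.66 ± 0.26 SE (adjusted p = 0.0180). Psat1, Slc7a5 and Phgdh, serine synthesis enzymes and a transporter of large neutral amino acids, had 1.52, 1.55 and 1.57 and complete the 5. Cad, which starts pyrimidine synthesis, was the only call among 22 genes of nucleotide and polyamine synthesis, with 1.49 ± 0.24 SE (adjusted p = 0.0180).

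Cholesterol synthesis genes had a positive median excess that differed between the replicates. The list's median excess was 0.57, but 0.10 in replicate 1 and 0.84 in replicate 2. Over its 19 genes the median change was 0.32 in new RNA and -0.57 in total RNA, where 6 genes fell (23.2% of all genes did). The total RNA median was -0.04 in replicate 1 and -1.06 in replicate 2, so it was near 0 in replicate 1 and lower at 4 h in replicate 2. Mvd of the mevalonate pathway stood at 6.91 and 4.08 FPKM in new RNA at 4 h against 4.03 and 2.60 FPKM at 0 h, and at 4.23 and 5.22 FPKM in total RNA at 4 h against 9.89 and 14.1 FPKM at 0 h. It had lower total RNA at 4 h, with a log2 change of -1.17, and an excess of 1.75 ± 0.35 SE (adjusted p = 0.0290).

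Among the remaining genes with a higher excess, Mif, a secreted inflammatory mediator, had 2.05 ± 0.46 SE (adjusted p = 0.0457), and its 0 h libraries differed between replicates, at 20.02 and 54.4 FPKM in new RNA. Lama5, a laminin chain, had 1.92 ± 0.27 SE (adjusted p = 0.0168), with 18.8 and 22.7 FPKM in new RNA at 4 h against 2.07 and 2.75 FPKM at 0 h. The pyrophosphatase Ppa1, the methyltransferase Smyd2 and the cytotoxic protease Gzmb rose in both kinds of RNA and more in new RNA, with excesses of 1.86 ± 0.39, 1.58 ± 0.25 and 1.80 ± 0.37 SE (adjusted p = 0.0346, 0.0180 and 0.0331).

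Gzmb is also a marker of CD8 T cells, and those markers differed between the replicates. Of 7 CD8 markers other than Gzmb, 5 were in the table, and they summed to 251.2 and 49.5 FPKM in new RNA at 4 h against 143.5 and 17.8 FPKM at 0 h, and to 427.1 and 46.3 FPKM in total RNA at 4 h against 316.5 and 22.3 FPKM at 0 h, replicates 1 and 2, with none at 0. Replicate 1 was the higher in each group. The part of these markers in the Gzmb value was not tested. Of the 14 Th1 markers all were in the table and above 0 in each of the 8 libraries, Cd4 from 45.2 to 127.4 FPKM and Tbx21 from 24.4 to 162.5 FPKM, and no red cell or platelet marker of 9 was in the table.

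The opposite pattern, new RNA lower relative to total RNA, was called for 15 genes. They include the integrin chain Itgb7, the annexin Anxa1, the secreted selenium carrier Selenop, the tetraspanin Cd9 and the calcium-binding S100a6. Over the 15 the median change was -2.33 in new RNA and -0.79 in total RNA. New RNA fell for all 15 (31.8% of all genes did) and total RNA for 11 (23.2%). The 15 were called on the difference of these same values, so the counts are a description. With only genes of at least 5 FPKM in all 8 libraries the count of lower calls was 8, and with a pseudocount of 5 it was 9.

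Itgb7, which pairs with an alpha chain for homing to the gut (chromosome 15, 102215995 to 102231944, minus strand), had the lowest value, -1.85 ± 0.35 SE (adjusted p = 0.0272). Its new RNA stood at 15.6 and 10.6 FPKM at 4 h against 117.3 and 114.4 FPKM at 0 h. Its total RNA stood at 70.8 and 40.7 FPKM at 4 h against 206.1 and 78.6 FPKM at 0 h. Both kinds were lower at 4 h without overlap, and new RNA by more in each replicate, with -1.31 in replicate 1 and -2.38 in replicate 2. It was the only call in either direction among 26 quiescence and homing genes, where 1.79% of all genes were called. Their median excess was -0.34.

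Anxa1, a phospholipid-binding protein that restrains inflammation (chromosome 19, 20373428 to 20390944), stood at 7.60 and 1.43 FPKM in new RNA at 4 h against 34.9 and 18.1 FPKM at 0 h. In total RNA it stood at 26.1 and 9.04 FPKM at 4 h against 47.4 and 15.6 FPKM at 0 h. Replicate 1 was higher than replicate 2 in every group, and within each replicate new RNA was lower at 4 h by more than total RNA (excess -1.74 ± 0.29 SE, adjusted p = 0.0180).

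Selenop had an excess of -1.61 ± 0.34 SE (limma, adjusted p = 0.0346) and H2afv, a variant histone, -1.62 ± 0.26 SE (adjusted p = 0.0180). H2afv was the only call in either direction among 28 histones, where 1.79% of all genes were called. Histone genes have near-identical copies, so single members are uncertain. The list's median was -0.47, but -0.16 in replicate 1 and -0.82 in replicate 2.

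In Cd9, S100a6, Pbk and Hsd11b1 total RNA was within 0.5 log2 units of its 0 h level, while new RNA was lower. Cd9 stood at 2.62 and 4.17 FPKM in new RNA at 4 h against 8.97 and 18.4 FPKM at 0 h, and at 10.7 and 12.1 FPKM in total RNA at 4 h against 11.1 and 13.7 FPKM at 0 h (excess -1.58 ± 0.28 SE, adjusted p = 0.0228). S100a6 differed more between replicates than between times, at 37.0 and 5.29 FPKM in new RNA at 4 h against 106.2 and 19.1 FPKM at 0 h. Its excess was -1.36 ± 0.29 SE (adjusted p = 0.0373). Pbk, a mitotic kinase, had -1.31 ± 0.27 SE (adjusted p = 0.0290), Smpdl3a, a lysosomal-type phosphodiesterase, -1.39 ± 0.28 SE (adjusted p = 0.0290), and Hsd11b1, which activates glucocorticoids, -1.28 ± 0.28 SE (adjusted p = 0.0422). Footprints of the 15 genes had a median change of -1.03 and were below 0 in both replicates for 14, where 44.9% of all genes were.

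**Figure D4:**
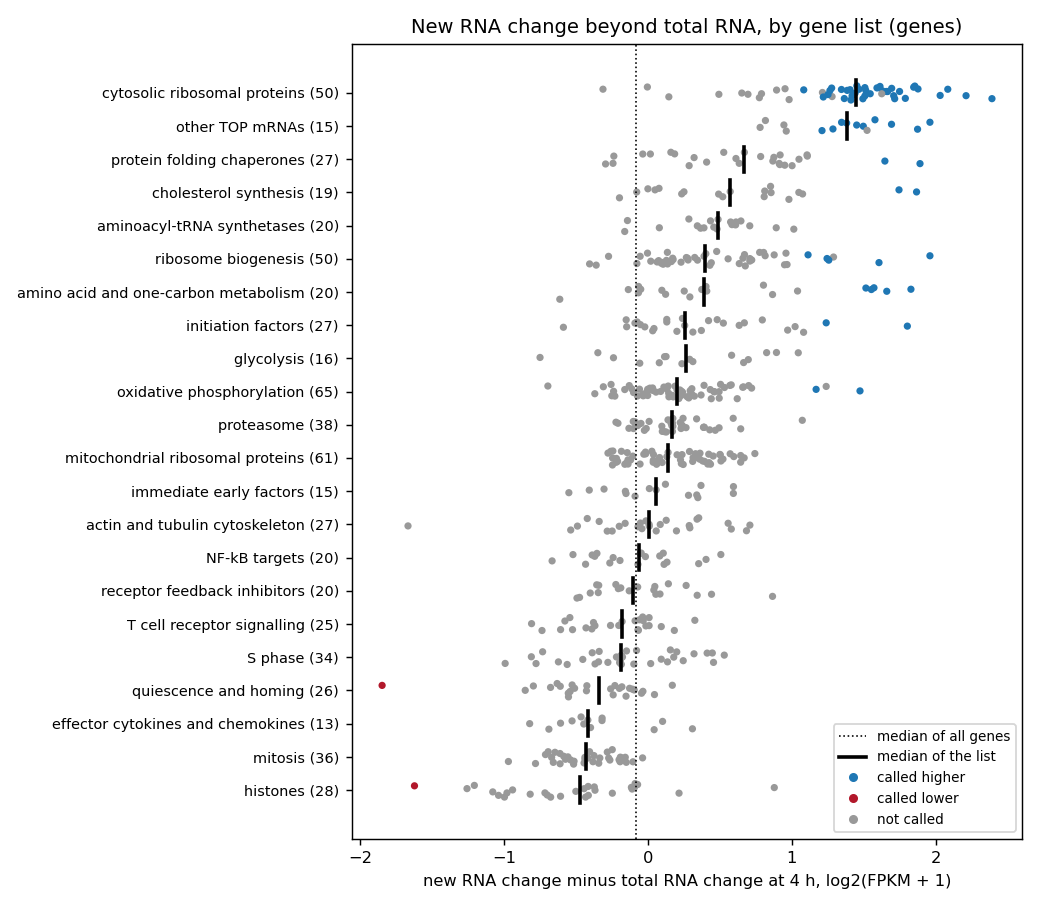
New RNA excess at 4 h in log2(FPKM + 1) for each gene of 22 lists, with the number of genes in brackets. Blue points were called higher, red points lower and grey points not called, bars are list medians and the dotted line is the median of all genes (-0.08). Ribosomal proteins and other TOP mRNAs have medians of 1.45 and 1.38, and mitosis and histones of -0.43 and -0.47.

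Most genes of T cell activation lists rose in both kinds of RNA, where 21.9% of all genes rose in new RNA and 16.9% in total RNA. None was called in the excess, but with 1.79% of all genes called, a count of 0 in lists of this size is near that share. Of the immediate early factors 12 of 15 rose in new RNA and 11 in total RNA, with a median new RNA change of 1.22, and 0 were called in the excess (median 0.06). Of the effector cytokines and chemokines 10 of 13 rose in new RNA and 12 in total RNA, with medians of 1.59 and 1.91, and 0 were called in the excess (median -0.42). Of the 13, 9 were below 0 in both replicates (42.2% of all genes were) and 1 was above 0 in both (26.8%). NF-kB targets and receptor feedback inhibitors likewise had 0 of 20 and 0 of 20 called, with medians of -0.06 and -0.10.

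Ifng, the defining Th1 cytokine (chromosome 10, 118441046 to 118445892), stood at 7580 and 2368 FPKM in new RNA at 4 h against 101.0 and 45.4 FPKM at 0 h, and at 7340 and 1814 FPKM in total RNA at 4 h against 42.3 and 25.03 FPKM at 0 h. The times were far apart in both kinds, and the excess was -0.82 ± 0.40 SE (adjusted p = 0.398), with -1.19 in replicate 1 and -0.45 in replicate 2. Myc, the growth regulator, stood at 421.3 and 396.3 FPKM in new RNA at 4 h against 27.9 and 27.5 FPKM at 0 h, and at 147.7 and 124.8 FPKM in total RNA at 4 h against 11.9 and 12.2 FPKM at 0 h (excess 0.45 ± 0.23 SE, adjusted p = 0.430). Tnf, Cd69, Egr1 and Il2ra had excesses of -0.42, -0.34, 0.59 and 0.55, none called. A missed call does not show that both kinds of RNA changed alike.

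S1pr1 and most mitosis genes were lower at 4 h in both kinds of RNA. The homing receptor S1pr1 stood at 3.02 and 7.35 FPKM in new RNA at 4 h against 184.9 and 258.1 FPKM at 0 h, and at 1.33 and 3.05 FPKM in total RNA at 4 h against 64.3 and 67.9 FPKM at 0 h (excess -0.79 ± 0.30 SE, adjusted p = 0.269). Its regulator Klf2 had -0.26 ± 0.27 SE. Of 36 mitosis genes 0 were called, where 1.79% of all genes were. Yet 33 of the 36 were below 0 in both replicates (42.2% of all genes were), with a median of -0.43. Their new RNA fell for all 36 (31.8% of all genes did) and their total RNA for 34 (23.2%), with medians of -1.37 and -0.95. Ccnb2, a mitotic cyclin, had the lowest value, -0.97 ± 0.23 SE (adjusted p = 0.0639).

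By shape, 160 genes (1.94%) had new RNA up by at least 1 with total RNA within 0.5 of 0, and 84 of them were called higher. Another 456 genes were up by at least 1 in both kinds, of which 15 were called higher. New RNA down alone held 69 genes (4 called lower), both down 477 genes (6 called lower), total RNA down alone 11 (1 called higher), total RNA up alone 7 (0 called), and opposite directions 8 (5 called higher). The remaining 7069 genes included 28 called higher and 5 called lower. The shapes use the same values as the calls, so these counts are a description.

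Features that the difference did not use directly are given as a description. Transcripts of the genes called higher had a median GC content of 54.0%, against 46.1% for the genes called lower and 50.0% for all. The pentamer ATTTA, a letter match to the core of AU-rich decay elements, occurred in the 3' UTR of 51 of 129 genes called higher (39.5%), in 9 of 15 called lower (60.0%) and in 66.8% of all. The median 3' UTR length was 388 bases for genes called higher, 409 bases for genes called lower and 948 bases for all, and a longer UTR has more room for a match. The E-box CACGTG, the same on both strands, was found at any start of 16.2% of the genes called higher with a promoter. The share was 12.5% of all included genes with a promoter. Of the single promoters in the RefSeq table, which count starts and not genes, 7.2% had it. In resting cells the genes called higher had a median of 16.1 FPKM in new RNA and 45.8 FPKM in total RNA, whereas all genes had 14.6 and 9.78 FPKM. These 0 h levels enter the difference, so their order is not independent of it.

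GC content moved with the excess across genes, and mainly in replicate 1. Spearman's rho between GC content and the excess was 0.44 over 8242 genes, at 0.60 in replicate 1 and 0.15 in replicate 2, across genes that share the same libraries. From the lowest to the highest of 10 GC bins the median excess ranged from -0.47 to 0.44 in replicate 1 and from -0.16 to 0.02 in replicate 2. Ribosomal protein transcripts, with a median GC content of 51.7%, lie near the middle of that range. Their GC range (40.6 to 60.8%) also held 7516 of the other genes, which is most of them, with a median excess of -0.07. That median is therefore close to the -0.08 of all genes and does not compare genes of matched GC content. The part of GC content in the ribosomal protein excess was not tested. After the GC correction limma called 4 genes higher and 1 lower in the table, and 157 of the 158 calls kept their direction.

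**Figure D5:**
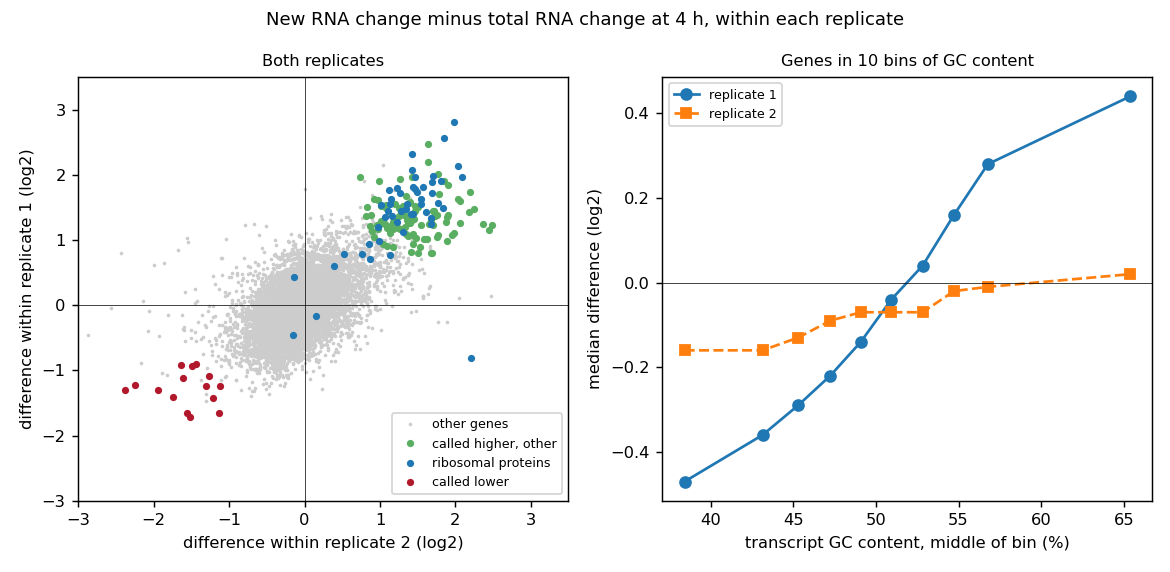
Left, new RNA excess within replicate 2 (horizontal axis) against replicate 1 (vertical axis), log2 units, for the genes included, with 1 gene beyond the plotted range. Right, median excess in 10 bins of transcript GC content (%), for replicate 1 (circles) and replicate 2 (squares). Called genes lie away from 0 in both replicates, on which the calls were made, and the slope with GC content is steeper in replicate 1.

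Agreement between replicates limits single genes. The sign of the excess was the same in both replicates for 5691 of 8257 genes (68.9%), and Pearson's r between the replicates' values was 0.57 across genes. The largest mean value of all belonged to Lars2, a mitochondrial leucyl-tRNA synthetase, chosen after its values were seen. Its excess was 6.75 in replicate 1 and -1.19 in replicate 2 and was not called (adjusted p = 0.524). Its total RNA stood at 3.62 and 389.5 FPKM at 4 h against 187.1 and 60.9 FPKM at 0 h, while its new RNA stood at 27.7 and 29.1 FPKM at 4 h against 9.89 and 9.87 FPKM at 0 h. Only the total RNA libraries of this gene disagreed.

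The filter of 1 FPKM left out 1163 genes, of which 6 had been called higher and 4 lower in the fit over the whole table. Just inside the limit, 132 genes had their lowest value between 1 and 1.1 FPKM, and just outside it 130 genes had theirs between 0.9 and 1 FPKM. Cytokines low in at least 1 library at 0 h were among those left out. The table holds 29 of those listed, 13 were included, and Il2, Il3 and Csf2 were not. Il2 stood at 14.8 and 17.7 FPKM in new RNA at 4 h against 0.24 and 0.18 FPKM at 0 h, and at 16.8 and 8.43 FPKM in total RNA at 4 h against 0 and 0.18 FPKM at 0 h. Csf2 stood at 224.0 and 446.6 FPKM in new RNA at 4 h against 2.09 and 7.02 FPKM at 0 h, and at 91.3 and 130.6 FPKM in total RNA at 4 h against 0.47 and 0 FPKM at 0 h, so only total RNA at 0 h kept it below the limit.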

How the data were processed

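The authors deposited 1 table of FPKM for 9420 genes in 24 libraries, and its values already contain their own filtering and scaling. The submitters' processing notes name GRCm38 and, for counting, featureCounts (Subread 1.4.6-p3). Gene lengths, strand setting and aligner were not given in those sources. FPKM state no depth. Steps between low values resolved only total RNA 0 h replicate 2, at 4.87 M reads (84.3% of 102 low values whole within 0.1 read), where 40 genes were listed at 0. The depth of the other 7 libraries is unknown.

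Values were set to log2(FPKM + 1). All 9420 genes were fitted with limma 3.58.1 in R 4.3.3 (variance trend, 4 groups, replicate number as a block, 3 residual degrees of freedom), and p-values were adjusted by Benjamini-Hochberg over all of them, with calls at 0.05. The fit was tested on simulated data. The share of false calls held its nominal level under limma's own variance model. It ran slightly above that level with the heavier-tailed variances of these genes. The criterion was changed after it had failed, and only the simulation under limma's own variance model was required to pass. The simulated data had an additive replicate block and independent errors, as the fit assumes. They therefore cannot test the block on which the calls depend. Deviations of libraries with the same replicate number correlated at 0.491 to 0.765 in 6 pairs of groups, so the numbers were taken to pair the libraries, from the data and not from the labels. Replicates of a group correlated at 0.942 to 0.962 across genes.

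Named genes are the 10 largest calls in each direction with the same sign in both replicates, up to 2 of each list, 3 of each shape and a set of followed T cell genes. Members and lists were chosen with earlier results of these data known. Symbols (9412 IDs), transcript GC content and 3' UTRs come from GENCODE M21 on GRCm38, and promoters from RefSeq (GRCm38.p6), with 6642 of 8257 genes matched. Other pseudocounts, filters, scalings, fits and left-out libraries were tried. The libraries with 0.5 h of labelling entered no fit and are given only as a median change. Some genes that the rule names are not reported here.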

Additional observations from a re-analysis of the deposited data

How the results depend on the processing

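Of the counts in the table, 139 genes with a higher and 19 with a lower new RNA excess, or 133 and 15 among genes of at least 1 FPKM, the fit without the replicate block left 0, 0, 0 and 0 in limma (476 genes at an unadjusted p below 0.05), 0 of the ribosomal proteins and 0 of the other TOP mRNAs. That fit gave 1368 higher and 1893 lower for new RNA and 778 and 888 for total RNA, against 2093 and 3101, and 1640 and 2270, with the block. Limma on the within-replicate differences alone, also a form of replicate block, gave 739 and 725 in the table (all 158 calls shared) and 635 and 593 among genes of at least 1 FPKM. Median-of-ratios scaling, which moved the median of all genes by over 0.1 in new RNA (from -0.16 to 0.00), gave 35 and 5, or 34 and 4, with 8 ribosomal proteins and 4 other TOP mRNAs, and turned the split for new RNA to 2625 higher and 2452 lower and for total RNA to 2099 and 1988. The GC correction with the replicate block, added after seeing the data, gave 4 and 1, or 4 and 1, with 2 ribosomal proteins and 1 other TOP mRNA. The cause of these losses was not tested. With only genes of at least 5 FPKM, where fewer genes were tested, 8 and 8 were lower in the excess, and 1135, 1376, 805 and 1014 were called in new and total RNA, higher and lower in turn. A pseudocount of 5 left 9 lower calls.

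Leaving out 1 library in turn gave 0 to 303 higher and 0 to 144 lower in the table, 0 to 271 and 0 to 105 among genes of at least 1 FPKM, 0 to 40 ribosomal proteins and 0 to 10 other TOP mRNAs. For new RNA it gave 1468 to 2236 higher and 2059 to 3386 lower, and for total RNA 853 to 1698 and 1030 to 2472. The 3 fits with 0 calls had 842, 703 and 798 genes at an unadjusted p below 0.05. No direction of the 158 calls turned in these fits, which share most of their libraries with the fit that made the calls. The median excess of ribosomal proteins ranged from 1.29 to 1.55 and that of other TOP mRNAs from 1.26 to 1.52 over all settings. With 2 libraries a group and unknown depth, single genes are limited. Lists are limited too, since their genes share the same libraries. Some list medians differed between replicates, as for histones with -0.16 in replicate 1 and -0.82 in replicate 2.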

Other observations

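Several lists not described above had few calls, where 1.61% of all genes were called higher and the median new RNA excess of all genes was -0.08. Oxidative phosphorylation had 2 of 65 genes called higher (median 0.20), Uqcrq of complex III with 1.48 ± 0.33 SE (limma, adjusted p = 0.0457) and Atp5d of the ATP synthase with 1.17 ± 0.25 SE (adjusted p = 0.0356). Spliceosome and hnRNP genes had 2 of 44 called higher (median 0.16), Hnrnpa1 and the U1 component Snrpa. Interferon response genes had 1 of 24 (Bst2, a tethering factor, 1.51 ± 0.28 SE, adjusted p = 0.0241) and mRNA decay factors 1 of 29 (Pabpc4, a poly(A)-binding protein, 1.22 ± 0.24 SE, adjusted p = 0.0275). None was called among 61 mitochondrial ribosomal proteins (median 0.14), 38 proteasome genes (0.17), 16 glycolysis genes (0.26), 27 actin and tubulin genes (0.01), 34 S phase genes (-0.18), 25 genes of T cell receptor signalling (-0.18), 23 of apoptosis and survival (-0.16), 22 Th1 and T cell transcription factors (-0.11) or 13 activation receptors (-0.10). Above 0 in both replicates were 40 of 65 oxidative phosphorylation genes, 34 of 61 mitochondrial ribosomal proteins, 23 of 38 proteasome genes and 8 of 16 glycolysis genes, against 26.8% of all genes.

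Few markers of other cells reached 1 FPKM in all 8 libraries. NK cell markers had 2 of 10, macrophage, monocyte and dendritic markers 3 of 19, other helper cell markers 6 of 17 and B cell markers 0 of 11. None of these was called, where 1.79% of all genes were. Of the 17 other helper cell markers 15 were in the table, and they summed to 833.6 and 1127 FPKM in new RNA at 4 h against 699.0 and 808.8 FPKM at 0 h, and to 548.2 and 560.7 FPKM in total RNA at 4 h against 278.7 and 312.9 FPKM at 0 h. Il2ra alone, which is in this list, stood at 358.1 and 486.7 FPKM in new RNA at 4 h against 70.9 and 64.0 FPKM at 0 h. In total RNA it stood at 290.7 and 330.6 FPKM at 4 h against 58.5 and 92.3 FPKM at 0 h. The higher sums at 4 h therefore do not show that the other markers of the list rose. In each library the sums of the markers in the table were 14.5 to 50.1 FPKM for NK cells, 27.5 to 137.3 FPKM for macrophages, monocytes and dendritic cells, and 1.84 to 17.3 FPKM for B cells. Gzma stood at 105.1 and 1.46 FPKM in new RNA at 4 h against 73.5 and 0.66 FPKM at 0 h, and at 263.6 and 4.17 FPKM in total RNA at 4 h against 214.6 and 4.42 FPKM at 0 h, replicates 1 and 2. Replicate 1 was thus higher in each group for this CD8 and NK cell protease.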
